A study of Mus musculus with 23 samples.

Results

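The nuclear genes for the subunits of the oxidative phosphorylation system were followed across RNA-seq libraries of mouse orbitofrontal cortex. They were chosen by symbol, with a pattern that takes the Ndufa, Ndufb, Ndufc, Ndufs and Ndufv genes of complex I, Sdha to Sdhd of complex II, Cyc1 and the Uqcr genes of complex III, the Cox4 to Cox8 genes of complex IV and the Atp5 genes of complex V. Of 27178 genes in the table, 100 symbols matched. The assembly factors Ndufaf1 to Ndufaf8 and Ndufa4l2 were left out, which left 91. Of these, 87 reached a normalized count of at least 10 in at least 5 of the 23 libraries and are the members described here. Just inside that minimum lay Ndufb4c, with 6.12 to 21.8 normalized counts over the libraries, and just outside it Cox7b2, with at most 8.93. They comprise 41 genes of complex I, 4 of complex II, 9 of complex III, 15 of complex IV and 18 of complex V.

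Oxidative phosphorylation takes place in the inner mitochondrial membrane. Complexes I and II pass electrons from NADH and succinate to ubiquinone, complex III passes them on to cytochrome c, and complex IV hands them to oxygen, while complexes I, III and IV pump protons that complex V, the ATP synthase, uses to make ATP. In brain this system supplies most of the ATP that neurons spend on ion gradients and synaptic transmission. The subunits encoded by mitochondrial DNA are not analysed here.

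The libraries came from male wild-type C57BL/6J mice aged 8 weeks. On day 0 the orbitofrontal cortex received an adeno-associated virus of serotype 6 whose GFAP promoter, active mainly in astrocytes, drove either GFP alone or ZBTB7A together with GFP. ZBTB7A is a zinc finger transcription factor. On day 21 mice of each virus met either a subthreshold social defeat stress or the control condition, behavioural tests ran from day 22 to day 27, and infected tissue was taken on day 28. The groups were GFP without stress (5 libraries), GFP with stress (8), ZBTB7A without stress (5) and ZBTB7A with stress (5). All 4 groups had surgery, a viral vector and the same behavioural tests. The vector is meant for astrocytes while the RNA is from bulk tissue, in which fewer cells of a type and less RNA per cell cannot be told apart. One general treatment label mentions the stress for every library, and the groups follow the label that names the stress condition. A library is called by its group together with its title number. The labels do not say that each library is a separate animal, so the p-values measure the spread between libraries only.

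The deposited values are normalized counts, from which whole reads could be recovered: 12.5 to 51.9 M (mega) reads per library. In the libraries labelled ZBTB7A, the factor's own message stood at the level of the GFP libraries. Zbtb7a lay at 3834 ± 629 normalized counts (SD, n = 5) with GFP without stress and 3934 ± 251 (n = 8) with GFP and stress. It was 3716 ± 247 (n = 5) with ZBTB7A without stress and 3744 ± 173 (n = 5) with ZBTB7A and stress, and all groups overlapped. Whether reads from the vector would be counted under Zbtb7a is not given in the sources used here. Astrocyte markers were present in every library, with summed normalized counts of 98445 to 139127. Markers of striatal medium spiny neurons, which cortex should hold at low levels, differed widely between libraries, with sums from 10988 to 177735.

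Promoters of the genes were examined first, because respiratory chain genes are known for shared promoter elements. Nuclear respiratory factor 1 (NRF1), GABPA of the ETS family (also called NRF2) and YY1 are textbook regulators of these genes. Of the 87 members, 67 matched a gene in a RefSeq promoter table of build GRCm38.p6, which holds 250 bases before and 50 after the start of 27025 genes. The searched letters were GCGCATG for NRF1 (CATGCGC on the other strand), CCGGAAG for the ETS family (CTTCCGG) and AAGATGG for YY1 (CCATCTT). The NRF1 letters of both strands can overlap each other. NRF1 letters stood in 12 of 67 member promoters (17.9%) against 4.41% of all promoters, ETS letters in 15 (22.4% against 9.93%) and YY1 letters in 11 (16.4% against 7.28%). At least 1 of the 3 motifs stood in 31 member promoters, 46.3% against 19.5% of all. A match is a description of letters and not a bound site.

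The printed stretches run from 180 bases before to 10 bases after the annotated start, 5′ to 3′ on the strand of the gene, with motif letters in capitals. Cox6a1 and Atp5k are shown because the NRF1 letters of both strands overlap there in 1 block, beginning 162 and 50 bases before the start, Cox6a1 with an ETS match as well. In Cox5b and Ndufa6 the NRF1 letters stand alone, 51 and 82 bases before the start. Cox8a and Cox6b1, the members with the smallest p-values under virus with stress, carry ETS letters 5 and 28 bases before the start. Cox7c carries YY1 letters 2 bases before the start. Atp5d, the member that varied most between libraries, has none of the 3 motifs in the stretch.
Cox6a1 (chr5:115348949-115349138, minus strand): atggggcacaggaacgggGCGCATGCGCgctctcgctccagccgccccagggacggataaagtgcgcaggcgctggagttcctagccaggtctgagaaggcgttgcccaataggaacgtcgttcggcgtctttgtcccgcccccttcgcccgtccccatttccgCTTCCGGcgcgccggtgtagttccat
Atp5k (chr5:108434390-108434579, minus strand): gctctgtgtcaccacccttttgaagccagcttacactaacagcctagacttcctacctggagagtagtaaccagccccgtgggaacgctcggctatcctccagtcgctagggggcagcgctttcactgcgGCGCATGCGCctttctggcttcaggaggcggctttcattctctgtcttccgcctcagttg
Cox5b (chr1:36691307-36691496, plus strand): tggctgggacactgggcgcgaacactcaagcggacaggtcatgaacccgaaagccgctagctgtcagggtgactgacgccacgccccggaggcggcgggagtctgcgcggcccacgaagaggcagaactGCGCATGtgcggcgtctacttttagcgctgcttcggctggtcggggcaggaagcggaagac
Ndufa6 (chr15:82354282-82354471, minus strand): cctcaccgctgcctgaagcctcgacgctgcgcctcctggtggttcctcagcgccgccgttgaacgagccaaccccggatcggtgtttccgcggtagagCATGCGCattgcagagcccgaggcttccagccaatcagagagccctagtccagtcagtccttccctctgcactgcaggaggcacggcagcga
Cox8a (chr19:7217607-7217796, minus strand): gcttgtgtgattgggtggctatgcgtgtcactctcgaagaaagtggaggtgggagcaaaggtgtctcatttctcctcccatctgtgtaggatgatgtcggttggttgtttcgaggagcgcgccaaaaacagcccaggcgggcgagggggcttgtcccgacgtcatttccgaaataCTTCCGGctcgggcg
Cox6b1 (chr7:30626105-30626294, minus strand): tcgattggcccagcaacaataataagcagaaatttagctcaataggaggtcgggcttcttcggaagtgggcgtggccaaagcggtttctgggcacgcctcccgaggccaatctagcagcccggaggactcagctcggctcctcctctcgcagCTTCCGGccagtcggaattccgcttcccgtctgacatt
Cox7c (chr13:86046786-86046975, minus strand): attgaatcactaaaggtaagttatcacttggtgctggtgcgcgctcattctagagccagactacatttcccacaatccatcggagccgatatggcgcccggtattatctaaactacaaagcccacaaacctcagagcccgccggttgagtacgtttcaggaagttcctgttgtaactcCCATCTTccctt
Atp5d (chr10:80142095-80142284, plus strand): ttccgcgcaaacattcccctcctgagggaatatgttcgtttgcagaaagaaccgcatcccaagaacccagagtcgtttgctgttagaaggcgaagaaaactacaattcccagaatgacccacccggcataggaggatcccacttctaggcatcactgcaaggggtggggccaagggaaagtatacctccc

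Members were abundant as a group. Their summed normalized counts made up 0.874% ± 0.068 of the library total (SD, n = 5) with GFP without stress and 0.894% ± 0.055 (n = 8) with GFP and stress. With ZBTB7A the share was 0.840% ± 0.041 (n = 5) without stress and 0.863% ± 0.045 (n = 5) with stress. Single libraries ranged from 0.787% to 0.986%, and the groups overlapped. On average 53 of the 87 members lay at 1000 normalized counts or more and 10 lay under 100.

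Levels of different genes were compared per kilobase of exon, for the 82 members with an exon length of their own. The steepest range was in complex IV, from 33.5 for Cox6b2 to 9893 normalized counts per kb for Cox6a1. Cox6a1, a supernumerary subunit, and Cox8a, another small nuclear-encoded subunit of cytochrome c oxidase, at 9327 per kb, were the highest of all members, above Cox6b1 at 4968 and Cox4i1 at 4775. In complex V the catalytic core subunits Atp5a1 and Atp5b lay at 6488 and 6218 per kb. Complex I had a median of 862.0 per kb, and its highest members were Ndufa4 at 2568 and Ndufb9 at 2211. Ndufa4 is named for complex I but is now known as a complex IV subunit. All counts and medians by complex keep it in complex I, by its symbol. The median was 781 per kb in complex II, 1523 in complex III, 677 in complex IV and 940.4 in complex V.

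**Figure D1:**
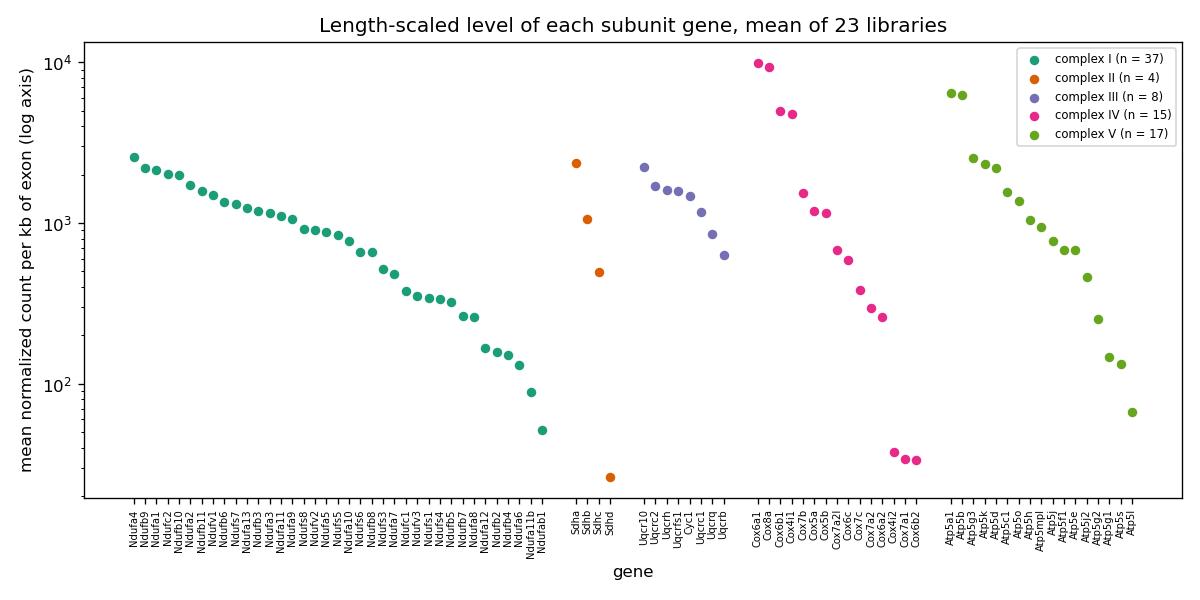
Each point is 1 subunit gene, for 81 of the 82 with a length, ordered within its complex by mean normalized count per kb of exon over 23 libraries (vertical log axis). Cox6a1 at 9893 and Cox8a at 9327 per kb stand highest, and Sdhd at 26.4 and Cox6b2 at 33.5 lowest.

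Several subunits exist as isoforms from separate genes, and in each pair 1 isoform was far more abundant here. The ubiquitous isoform Cox4i1 lay 126-fold above Cox4i2, the isoform best known from lung, on the per-kb scale, with a range of 74.1 to 215 over the libraries. Cox6a1 lay 38.1-fold above the heart and muscle isoform Cox6a2 (31.4 to 45.1), and Cox6b1 lay 148-fold above the testis isoform Cox6b2 (91.8 to 310). Cox7a2 was 8.71-fold above the muscle isoform Cox7a1 (5.42 to 17.9). The ATP synthase c subunit is encoded by several genes with the same mature protein. Of these Atp5g3 lay 17.2-fold above Atp5g1 (14.2 to 24.9) and 9.98-fold above Atp5g2 (8.55 to 15.3). Per-kb folds depend on the exon length, the union over all annotated transcripts of a gene: 4912 bases for Atp5g1, 2181 for Atp5g3 and 1675 for Atp5g2. Mean normalized counts without that scaling were 723, 5506 and 424. The dominant isoform was the same in every library. Cox8b, a muscle isoform, peaked at 7.56 normalized counts and the testis isoform Cox8c at 0.636, so both missed the minimum.

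Subunits of 1 complex could differ widely in their counts. Sdhd, a membrane anchor of succinate dehydrogenase, ran from 22.7 to 55.0 normalized counts, against 8768 to 10349 for Sdha, the flavoprotein subunit of the same enzyme. Uqcr11, a small complex III subunit, peaked at 1.74 and was left out. Whether the low counts of Sdhd and Uqcr11 reflect the message or the way reads were assigned to genes was not tested. Parts of some transcripts are shared with other genes, often processed copies. Of 50-base windows in the transcript, 84.8% occurred in other genes for Atp5l, 50.3% for Atp5o, 47.9% for Atp5h and 43.4% for Uqcrb, so their counts are uncertain. For Sdhd, Cox8a, Cox6b1, Cyc1 and Ndufa10 no window was shared. Among other members named below for small p-values, the share was 32.0% for Cox5a, 28.5% for Ndufa13, 27.9% for Cox7c and 25.9% for Cox5b. For Ndufa13, 30.0% of exon bases also lay under exons of other genes, and the counts of these members are uncertain too. The search covered annotated transcripts and not the whole genome, so an unshared gene can still lose reads. The pattern also takes in copies and pseudogenes (Ndufa11b, Ndufb4b, Ndufb4c, Ndufs6b, Uqcrh-ps1 and Atp5c1-ps) and 2 genes that are not classical subunits, Atp5s and the supercomplex factor Cox7a2l.

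Most members varied little between libraries of a group. The median within-group SD was 0.14 on the log2 scale against 0.19 for all genes tested, 51 of 87 members had an SD under 0.15, and 77 spanned less than 2-fold from the lowest to the highest of the 23 libraries. Among the steadiest were Sdha and Cox4i1. Sdha spanned 1.18-fold over all libraries, and Cox4i1 spanned 1.19-fold from 6857 to 8177 normalized counts. Low-count isoforms were wider. Cox7a1 spanned 10.2 to 33.0 normalized counts and Cox6b2 17.9 to 57.7.

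Atp5d, the delta subunit of the ATP synthase stalk, stood apart from the abundant members. With GFP without stress its normalized counts were 1649, 3726, 5868, 10822 and 3392. With GFP and stress they ran from a lowest of 3336 to a highest of 6022. With ZBTB7A they were 7622, 3502, 2489, 3904 and 2522 without stress and 6308, 3315, 3358, 2680 and 2122 with stress. The 6.56-fold span lay within the group of unstressed GFP libraries, between GFP control 1 and GFP control 11, and no pair of groups separated. Its within-group SD of 0.64 (log2) was above that of 92.9% of all genes tested, and Ndufs7, a core complex I subunit with a span of 1.82-fold from 1670 to 3042, was the next widest of the members above 1000 normalized counts.

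Over the 23 libraries, after removal of group means, Atp5d followed neither the mean of the other members (Pearson r = 0.01) nor that of the other 17 members of complex V (r = -0.03). Of those 17, Atp5g3 (r = 0.89) and Atp5j (0.87) did follow it, and 10 had an r below 0. In the other complexes Ndufs7 (0.92), Cox6a1 (0.89) and Cox5a (0.76) followed it most closely, while Sdha (-0.72) ran against it. Outside the members, r reached 0.99 with Exosc6, an exosome subunit, and 0.98 with Trappc5, a vesicle tethering subunit. All these genes are named by likeness after their values were seen. The 50 genes most like it had a median transcript GC content of 57.4%, against 50.3% over the other genes tested. The mean level of the GC-richest 10% of genes was lowest in GFP control 1 at -0.33 and highest in GFP control 11 at 0.35 (centred log2), the same libraries in which Atp5d was lowest and highest. Its part in the spread of Atp5d was not tested.

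**Figure D2:**
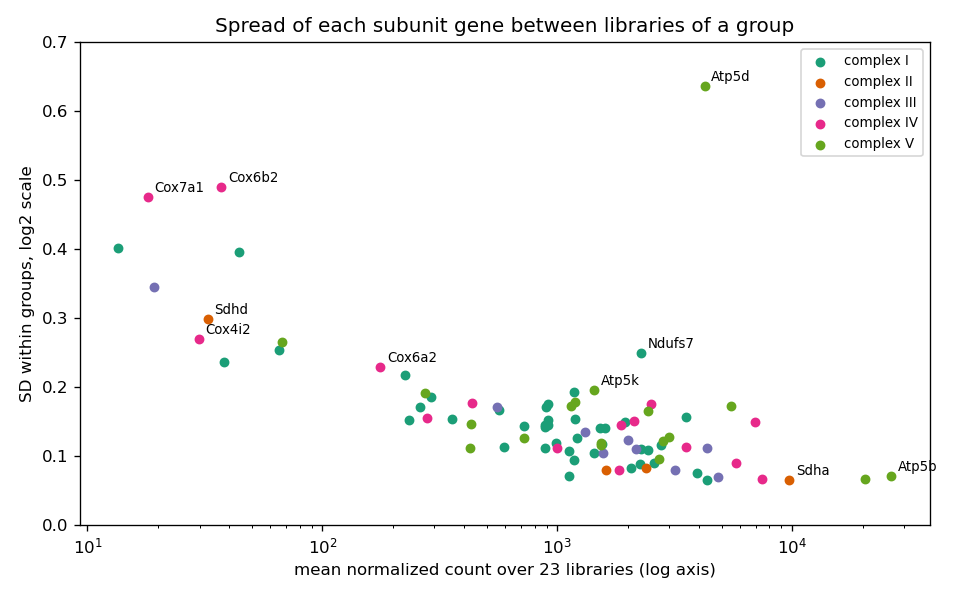
Each point is 1 subunit gene, with its mean normalized count on a log axis against the SD between libraries of a group on the log2 scale. Atp5d at 0.64 lies far above other genes of like abundance, while Sdha lies at 0.065.

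The members moved together between libraries. With group means removed, the median Pearson r between pairs of members was 0.45 across the 23 libraries and 87.7% of pairs were above 0, while the median for pairs of other genes was -0.00. Pairs share the libraries, their depth, their scaling and the run of their title numbers, and only group means were removed. These values describe the libraries only. The median pairwise r was 0.52 within complex I, 0.52 within complex III, 0.45 within complex V, 0.42 within complex II and 0.29 within complex IV. Uqcr10, a small complex III subunit, followed the mean of the other members most closely (r = 0.97), then Cox6b1 (0.93) and Ndufb2 (0.91). Sdha (0.17), Cox6a1 (0.16) and Atp5d (0.01) were among those that did not. The nuclear genes outside the set whose pattern was most like that of the members were Hint1 (r = 0.89), Ss18l2 (0.89) and Cox17, a copper chaperone for complex IV (0.87).

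To follow the members as 1 quantity, each log2 level was centred on its mean over the libraries and averaged. This level was 0.00 ± 0.10 (SD, n = 5) with GFP without stress and 0.06 ± 0.10 (n = 8) with GFP and stress. It was -0.08 ± 0.07 (n = 5) with ZBTB7A without stress and -0.02 ± 0.10 (n = 5) with ZBTB7A and stress. The unstressed GFP libraries ran from -0.15 to 0.08, the stressed GFP libraries from -0.12 to 0.22, the unstressed ZBTB7A libraries from -0.15 to -0.00 and the stressed ZBTB7A libraries from -0.13 to 0.10. The 4 groups overlapped. GFP stress 21 was the highest library and GFP control 10 the lowest.

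**Figure D3:**
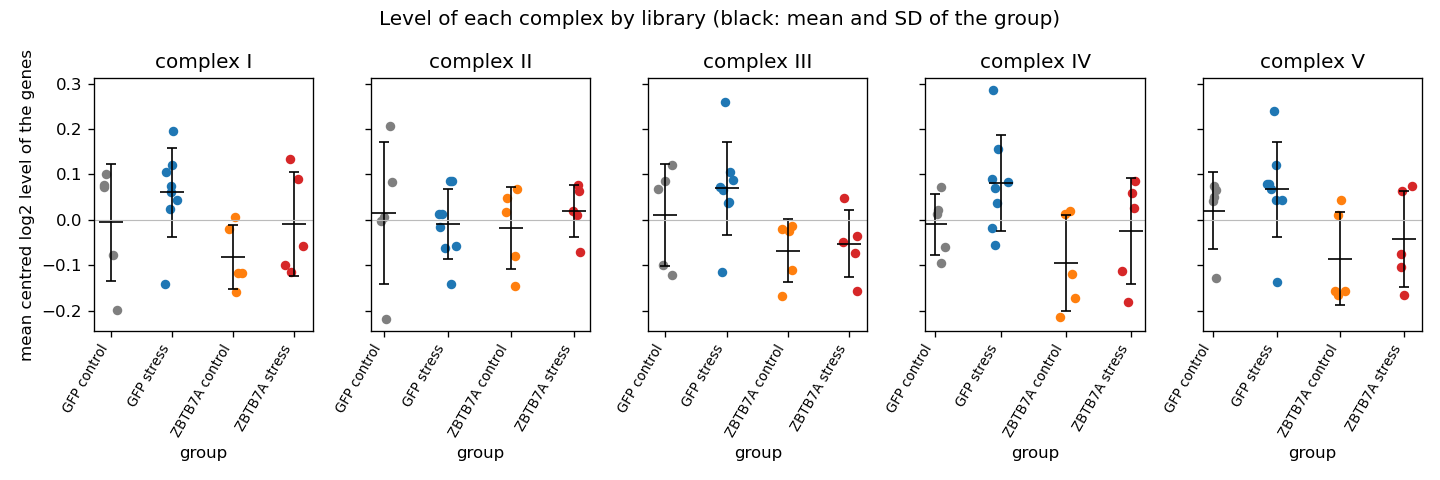
Mean centred log2 level of the genes of each complex, 1 point per library, by group (horizontal axis), with the group mean and SD in black. In complexes I, III, IV and V the ZBTB7A means lie below the mean of stressed GFP libraries, and in every complex the points of the 4 groups overlap.

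The members' level ran against that of long genes. Members have short transcripts, with a median of 892 bases for the 84 that have a value against 3148 over the other genes, and 59 of the 84 lay in the shortest 10% of genes (up to 1307 bases). The level of the longest 10% was 0.04 ± 0.04 (SD, n = 5) with GFP without stress and -0.06 ± 0.03 (n = 8) with GFP and stress. It was 0.03 ± 0.05 (n = 5) with ZBTB7A without stress and 0.02 ± 0.02 (n = 5) with ZBTB7A and stress. So long genes were lowest in the stressed GFP libraries, where the members were highest. Stressed GFP libraries ran from -0.114 to -0.013, with no overlap with unstressed GFP (0.002 to 0.097) or stressed ZBTB7A (-0.005 to 0.050). A fit with this level as a covariate cannot separate it from the group in comparisons of these groups. Across the 23 libraries within groups, Pearson r between the level of the members and that of long genes was -0.81 and Spearman rho -0.81, given as a description. With the shortest 10% of genes r was 0.40 and rho 0.51.

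The first comparison asked what the ZBTB7A vector changed without stress. Members lay slightly lower with ZBTB7A: the median fitted log2 fold change was -0.08 against -0.01 over all 16385 genes tested, and 81 of 87 members lay below 0, where 55.3% of all genes did. No member passed an adjusted p of 0.05 (limma, Benjamini-Hochberg over all genes), and 0% of all genes did. At an unadjusted p under 0.05, 3 members were lower and 0 higher, against 0.995% of all genes lower. Every complex had a negative median, from -0.04 in complex II to -0.10 in complex V. With the level of the longest 10% of genes as a covariate, chosen after seeing the data, the members' median was -0.11. In that fit the median over all genes was -0.009, 83 of 87 members lay below 0, and 0 members and 0 genes in all passed. Markers of some other cells lay lower in the same comparison. These were 8 of 9 of choroid plexus and ependyma (median -1.59, 6 at an unadjusted p under 0.05), all 13 striatal (-0.37), all 11 oligodendrocyte (-0.31) and all 10 inhibitory neuron markers (-0.14). All 10 microglia (0.09) and all 3 blood markers (1.12) lay higher. Lists that were split were endothelial and mural cells (6 of 11 higher), astrocytes (5 of 11) and excitatory neurons (5 of 13). The part of these cells was not tested.

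Uqcrq, a small subunit of complex III, had the smallest p-value there. Its normalized counts were 1639, 1613, 1487, 1544 and 1707 with GFP and 1518, 1421, 1346, 1527 and 1251 with ZBTB7A. All but 2 of the ZBTB7A libraries lay below the lowest GFP library. The log2 fold change was -0.18 ± 0.07 (SE; adjusted p = 1.000, limma). Ndufa13, a complex I subunit also known as GRIM-19, was at 1712, 1681, 1428, 1484 and 1594 with GFP and at 1568, 1448, 1294, 1344 and 1249 with ZBTB7A, with a log2 fold change of -0.20 ± 0.07 and the same adjusted p. Its groups overlapped as well. Cox8a, Cox7c and Cox5a of complex IV followed, at -0.15 ± 0.06, -0.22 ± 0.11 and -0.22 ± 0.11. The sparse isoform Cox4i2 went the other way, with a log2 fold change of 0.36 ± 0.18 (adjusted p = 1.000, limma). Its normalized counts with ZBTB7A were 28.4, 25.4, 27.1, 32.8 and, in ZBTB7A control 6, 47.2, against at most 29.0 with GFP. ZBTB7A control 6 had the fewest reads, 12.5 M. Cox4i2 was chosen after its values were seen, as the highest member in that comparison.

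The second comparison set the vectors against each other in stressed mice, and here complex IV was the lowest. The median log2 fold change of the members was -0.10 with ZBTB7A against 0.01 over all genes, and 73 of 87 members lay below 0, where 48.6% of all genes did. By complex the medians were -0.17 in complex IV, -0.11 in complex III, -0.10 in complex V, -0.09 in complex I and 0.01 in complex II. No member passed an adjusted p of 0.05 and 0% of all genes did (limma). At an unadjusted p under 0.05, 12 members were lower and 0 higher, or 5 of 15 in complex IV, 3 of 9 in complex III, 3 of 41 in complex I, 1 of 18 in complex V and 0 of 4 in complex II. The share of all genes lower at that p was 6.95%.

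Cox8a had the smallest p-value of the members. Its normalized counts with GFP and stress had a lowest value of 5623, a median of 6194 and a highest of 6689. With ZBTB7A and stress they were 5424, 5908, 5393, 5578 and 4823. Only 1 of the ZBTB7A libraries, at 5908, reached into the range of the GFP libraries, whose own lowest was GFP stress 13. The log2 fold change was -0.20 ± 0.06 (SE; adjusted p = 0.183, limma).

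Cox6b1, which faces the intermembrane space in complex IV, ran from 3267 over a median of 3791 to 4381 with GFP and stress and was 3621, 3487, 3183, 3255 and 3032 with ZBTB7A. Its log2 fold change was -0.20 ± 0.07 (adjusted p = 0.197, limma). Cox7b, another small complex IV subunit, ran from 1556 over 2068 to 2206 with GFP and stress and was 1796, 1933, 1688, 1773 and 1621 with ZBTB7A. Here GFP stress 13 lay below all ZBTB7A libraries and the other GFP libraries lay above them, with a log2 fold change of -0.21 ± 0.08 (adjusted p = 0.250, limma). Ndufa10, a supernumerary complex I subunit, and Cyc1, the cytochrome c1 of complex III, completed the 5 smallest p-values. Their log2 fold changes were -0.16 ± 0.05 (adjusted p = 0.207, limma) and -0.13 ± 0.05 (adjusted p = 0.254, limma). Cyc1 was almost level in the 5 stressed ZBTB7A libraries, from 3014 to 3140, while the GFP libraries spread from 2978 to 3747.

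**Figure D4:**
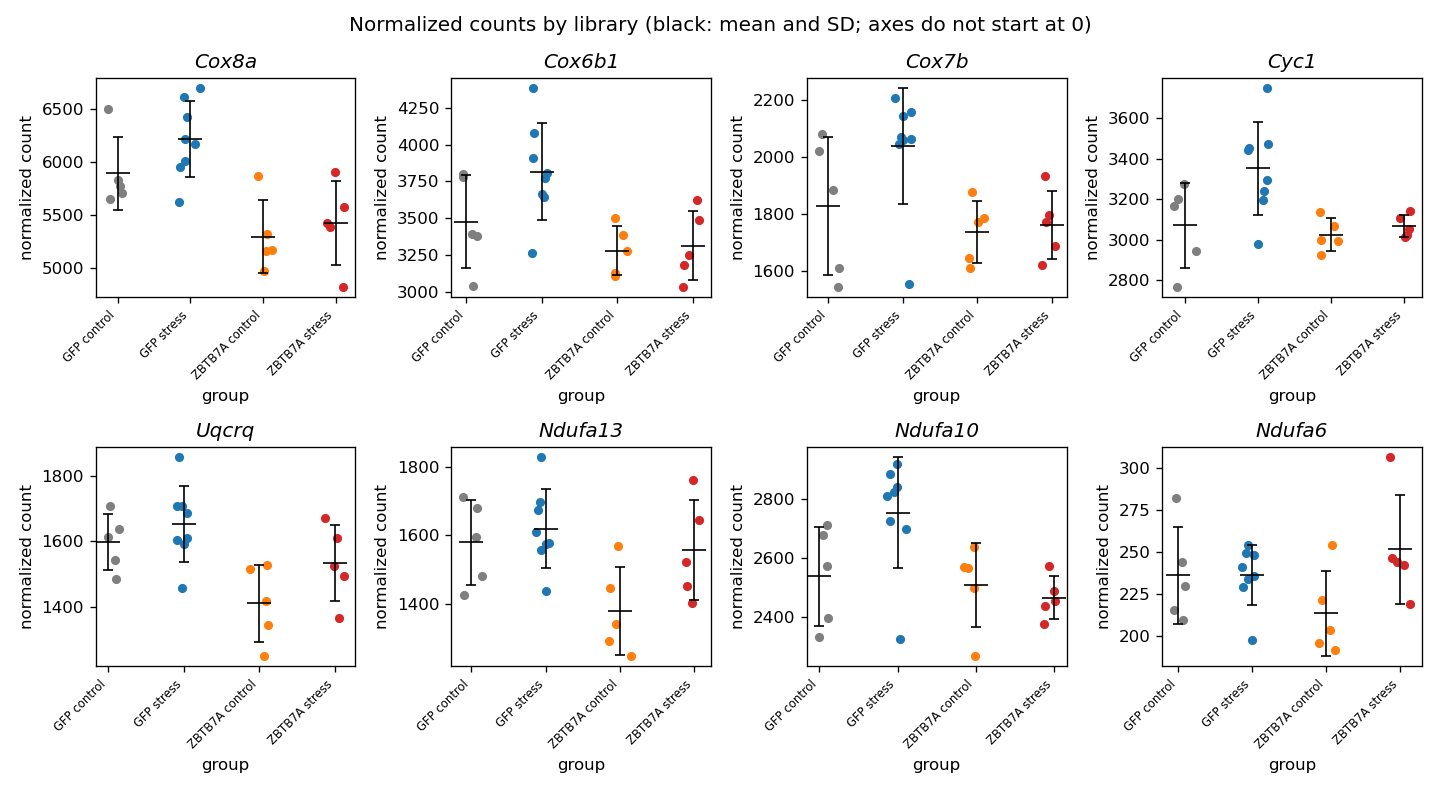
Normalized counts of 8 members with small p-values in 1 comparison or another, 1 point per library by group (horizontal axis), with mean and SD in black and vertical axes that do not start at 0. Cox8a with ZBTB7A and stress reaches from 4823 to 5908 and with GFP and stress from 5623 to 6689, and for each gene the groups overlap.

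The calls in stressed mice depended on the method. DESeq2 on recovered reads called 1 member, Cox8a, and 81 genes in all. Limma with array weights, which give noisier libraries less weight, called 14 members, all lower with ZBTB7A, and 2287 genes in all. That is 16.1% of members against 13.96% of all genes, and 6.74% of all genes were called lower. The 14 were Ndufa10, Ndufa4, Ndufv1 and Ndufb8 in complex I, Cyc1, Uqcr10, Uqcrc1, Uqcrfs1 and Uqcrc2 in complex III, Cox7b, Cox8a and Cox6b1 in complex IV and Atp5f1 and Atp5o in complex V. edgeR called 0 members and 0 genes, here and in the other 6 comparisons. Outside this comparison DESeq2 called 39 genes under stress with GFP and at most 7 in any other, with Cox8a over both stress conditions as the only member among them. Array weights called 2068 genes (12.6%) for the interaction and 668 (4.08%) under stress with GFP, with 0 members in each. In the remaining comparisons array weights called 0 genes.

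The sign of the median changed with the long gene level in the fit. The 2 stressed groups did not overlap on that level, so this fit cannot separate it from the vector. With the level of the longest 10% of genes as a covariate, an alternative chosen after seeing the data, the members' median under virus with stress was 0.05 and not -0.10, with 67 of 87 members above 0. Over all genes the median in that fit was 0.005. Cox8a was at -0.10, and Cox6b1 was at -0.00. Markers of other cells also moved in this comparison. All 13 striatal markers lay higher with ZBTB7A, with a median log2 fold change of 1.77 and sums of 45958 to 118014 against 10988 to 70601. Of 13 excitatory neuron markers 12 lay lower, with a median of -0.44. All 11 oligodendrocyte markers lay higher, with a median of 0.65, as did 7 of 9 choroid plexus and ependyma markers, with a median of 1.02. All 10 microglia markers also lay higher, with a median of 0.21. Of 10 inhibitory neuron markers 7 lay lower, with a median of -0.20, but Gad2 lay higher at 0.70 ± 0.20 (SE). Endothelial and mural markers (10 of 11, median 0.13) and astrocyte markers (7 of 11, 0.10) lay higher. All 3 blood markers lay lower (-0.96). With the excitatory neuron level as a covariate the members' median was -0.14. With the striatal level as a covariate Ndufa10 was at -0.07. The part of these cells in the lower level of the members was not tested.

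Under GFP, stress went with slightly higher members. The median log2 fold change was 0.07 against -0.01 over all genes, and 71 of 87 members lay above 0, where 48.4% of all genes did. No member passed (0% of all genes, limma), and 3 were higher and 0 lower at an unadjusted p under 0.05, against 3.27% of all genes higher. Cyc1 had the smallest p-value. It was at 2943, 3198, 2764, 3274 and 3168 normalized counts without stress and ran from 2978 over a median of 3368 to 3747 with stress, so the groups overlapped. Its log2 fold change was 0.13 ± 0.05 (SE; adjusted p = 0.383, limma). Cox5b followed at 0.11 ± 0.05, then Ndufa10 at 0.12 ± 0.05, Atp5k at 0.22 ± 0.11 and Cox6b1 at 0.13 ± 0.07. By complex the medians ran from 0.01 in complex II to 0.10 in complex IV.

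This comparison shares the stressed GFP libraries with the one before, so the opposite signs are not independent. The median also moved with the choice of libraries and covariates. Without GFP control 10 the median was 0.03. With the long gene level as a covariate it was -0.14, and 81 of 87 members lay below 0. Over all genes the median in that fit was -0.004. The stressed and unstressed GFP libraries did not overlap on that level, so the fit cannot separate it from stress. With the excitatory neuron level as a covariate the members' median was 0.08. Striatal markers moved with this comparison too, all 13 lower under stress with a median log2 fold change of -1.32, as did all 11 oligodendrocyte markers at -0.72, and 12 of 13 excitatory markers lay higher at 0.32. Of 9 choroid plexus and ependyma markers 8 lay lower, all 8 at an unadjusted p under 0.05, with a median of -2.45 and sums of 255 to 1113 against 1030 to 9607. The part of these cells was not tested.

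Under ZBTB7A, stress went with a median of 0.06 against 0.01 over all genes, and 77 of 87 members lay above 0, where 52.5% of all genes did. No member passed (0% of all genes, limma), and 2 were higher and 0 lower at an unadjusted p under 0.05, against 1.08% of all genes higher. These were Ndufa6 and Ndufa13, both complex I. Ndufa6, an accessory subunit of the matrix arm, was at 196, 254, 204, 222 and 192 normalized counts without stress and at 247, 307, 244, 243 and 219 with stress. The unstressed libraries lay below the stressed ones except for 2 of them that reached into their range. Its log2 fold change was 0.24 ± 0.10 and that of Ndufa13 0.17 ± 0.07 (SE; adjusted p = 1.000 for both, limma). The next were Cox7a2 at 0.18 ± 0.10, Uqcrq at 0.12 ± 0.07 and Ndufa2 at 0.12 ± 0.08. The median was 0.03 without ZBTB7A stress 9, and 0.03 with the number run of the titles as a covariate. All 13 striatal markers (median 0.84) and all 11 oligodendrocyte markers (0.22) also lay higher under stress in this comparison, and their part was not tested.

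**Figure D5:**
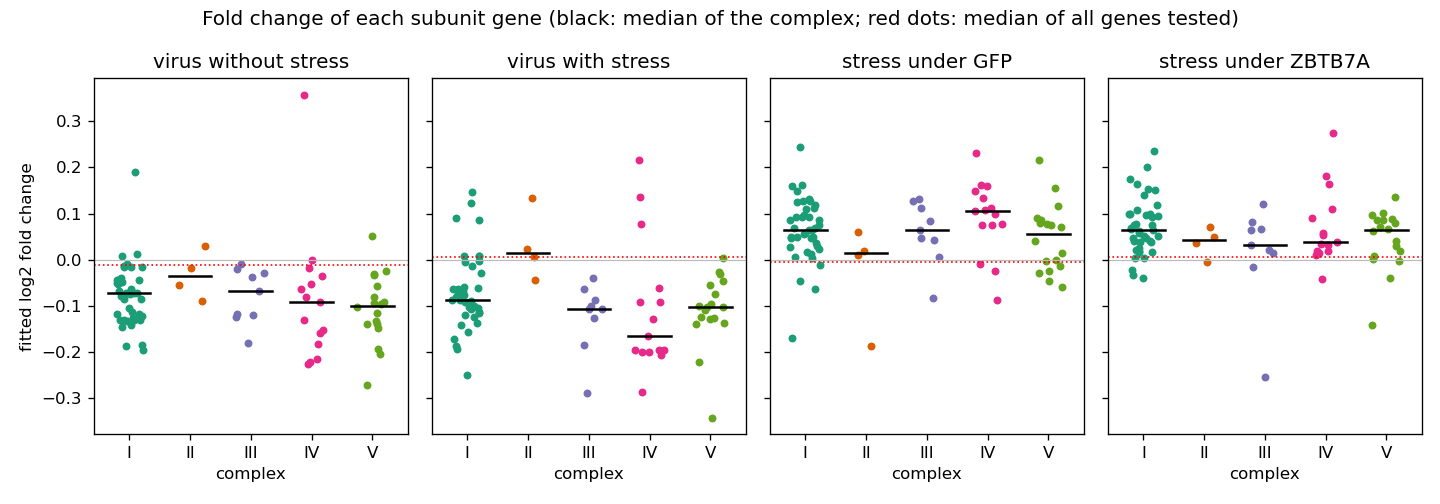
Fitted log2 fold change (vertical axis) of each of the 87 members in 4 comparisons, by complex, with the median of the complex in black and that of all genes tested as a red dotted line. Complex IV under virus with stress lies lowest, with a median of -0.17, and the medians of complex II lie between -0.04 and 0.04.

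With the vectors compared over both stress conditions, 79 of 87 members lay below 0, where 50.7% of all genes did, and the median was -0.08. No member passed (0% of all genes, limma). At an unadjusted p under 0.05, 23 members were lower and 1, Cox4i2, was higher, against 3.31% of all genes lower. Of the 15 members of complex IV, 8 were among the 23. Cox8a came first at -0.17 with an adjusted p of 0.611 (limma). With the long gene level as a covariate the median was -0.03, against -0.004 over all genes.

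With stress compared over both vectors, 78 of 87 members lay above 0, where 48.8% of all genes did, and the median was 0.06. No member passed (0% of all genes, limma), and 5 were higher and 0 lower at an unadjusted p under 0.05, against 1.59% of all genes higher. With the long gene level as a covariate the median was -0.05, and with the number run 0.04.

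Whether the vector's difference itself changed with stress was tested as an interaction. The median over the members was -0.02, and 51 of 87 lay below 0, where 47.6% of all genes did. No member passed (0% of all genes, limma), and 0 were lower or higher at an unadjusted p under 0.05. Of all 16385 genes, 292 (1.78%) were lower and 924 higher at that p. The smallest adjusted p of a member was 0.690, for Ndufa6, whose stress difference was larger with ZBTB7A by 0.23 ± 0.13 on the log2 scale. Ndufa10 was next at -0.14 ± 0.08. With the long gene level as a covariate the median was 0.18, against 0.010 over all genes. In that fit 80 of 87 members lay above 0, and still none passed. Without GFP control 10 the median was 0.03, and with the number run as a covariate -0.03.

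In none of the first 4 comparisons were the groups of any member fully apart. Of all genes, 0.543% were apart and lower and 0.458% apart and higher under virus with stress, and the shares in the other 3 comparisons were 0.110% to 0.256% in either direction, so 0 of 87 members is near the share of all genes. The titles run in 3 number runs, and each group has libraries in every run. Under virus with stress the difference in the members' level was -0.01, -0.06 and -0.19 within the 3 runs, and under virus without stress -0.07, -0.02 and -0.16. Under GFP the stress difference was 0.02, 0.07 and 0.02 and under ZBTB7A 0.08, 0.03 and -0.01, with as few as 1 library on a side.

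Other genes of energy metabolism were read from lists. None of their genes passed an adjusted p of 0.05 in any of the 7 comparisons (limma). Assembly factors of the complexes resembled the members, with 37 of 45 below 0 and a median of -0.05 under virus with stress and 38 of 45 above 0 with a median of 0.06 under stress with GFP. Coa3, an assembly factor of complex IV, had the smallest p-value in the first at -0.19 ± 0.05 (adjusted p = 0.183, limma). Among 21 genes of the TCA cycle and pyruvate dehydrogenase 17 lay below 0 under virus with stress, with a median of -0.09. Of 17 glycolysis genes 16 lay below 0, with a median of -0.12, and Pfkm, the muscle-type phosphofructokinase, led at -0.18 ± 0.07 (adjusted p = 0.236, limma). Of 18 carriers and exchangers 14 lay below 0 at a median of -0.07, led by Coq2 of ubiquinone synthesis at -0.16 ± 0.05 and the ADP/ATP carrier Slc25a4 at -0.16 ± 0.05. The 15 regulators of mitochondrial biogenesis did not share the direction: 10 lay above 0, with a median of 0.03. Twnk had the smallest p-value at 0.18 ± 0.07 (adjusted p = 0.234, limma). Gabpa, the DNA-binding part of NRF2, came second at 0.17 ± 0.09 (adjusted p = 0.344, limma).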

How the data were processed

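Polyadenylated RNA was sequenced from 23 libraries. Per the submitters' processing notes, the tools included DESeq2 2.11.40.6, HISAT2 2.1.0 and featureCounts 2.0.1, with builds mm10 and mm9 named without a role. The authors deposited normalized counts, a signal per gene divided by a size factor. Repeated entries of a gene (428) were left out. All values (100%) were whole multiples of what 1 read is worth within a tolerance of 0.02, so reads were recovered. The fits used limma 3.58.1 (R 4.3.3) with trended, robust variance on log2(normalized count + 1), 4 group means and Benjamini-Hochberg adjustment over 16385 genes. A fold change is on that scale and understates low genes. The limma fit was tested on simulated data. Alternatives were DESeq2 1.42.0 and edgeR 4.0.16, both fitted to the recovered reads, other pseudocounts, filters and scalings, array weights, covariates and leaving out each library. Named members are the 5 with the smallest p in each comparison. Exon lengths are from GENCODE M21 (GRCm38), which may not be the authors' annotation. Tables and plots used Python 3.11.15, pandas 2.3.3 and matplotlib 3.10.9. Depth of 12.5 to 51.9 M reads limits low genes: 1 read is worth up to 1.75 normalized counts. The members and all lists were chosen with earlier results of these data known. One member is counted among the 87 but its own values are not reported here.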

Additional observations from a re-analysis of the deposited data

Results flagged for a closer look

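Among 160 sets of values of 1 member or complex in 1 group, 18 had a lowest or highest library far from the others, by the gap to its nearest neighbour as a share of the range (Dixon's 95% value). Chance gives about 1 in 20 for a single set. The sets share libraries and members move together, so 18 of 160 cannot be tested against that rate. GFP stress 13 was low for 7 members of complexes I to IV: Ndufa10 at 2327, Ndufa6 at 198, Ndufs1 at 2194, Ndufa4 at 2966, Sdhb at 2120, Uqcrfs1 at 1890 and Cox7b at 1556 normalized counts. GFP control 10 was low for Uqcrc1 at 4497, for Atp5b at 23671 and for the level of complex V at -0.13 (centred log2). GFP control 11 was high for Cox5a at 3512 and Atp5g3 at 7803. GFP stress 21 was high for Cox5a at 3325, Cox6a2 at 261 and Atp5g3 at 6565. The others were Cox8a in GFP control 19 at 6492, Sdhb in ZBTB7A stress 26 at 2295 (low) and Atp5d in ZBTB7A control 6 at 7622.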

How the results depend on the processing

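The number of members past an adjusted p of 0.05 was 0 in all 7 comparisons with limma, and also with each library left out. It was 1 with DESeq2 and 14 with array weights under virus with stress, and 1 with DESeq2 with the vectors compared over both stress conditions. With the long gene level as a covariate, chosen after seeing the data, the members' median log2 fold change became 0.046 under virus with stress, -0.14 under stress with GFP, -0.050 for stress over both vectors and 0.18 for the interaction. The median kept its sign under virus without stress, where it moved further from 0 to -0.11. It also kept its sign under stress with ZBTB7A (0.027) and for the vectors over both stress conditions (-0.028). Named members that changed sign with this covariate under stress with GFP were Cyc1 at -0.012, Cox5b at -0.048, Atp5k at -0.22 and Cox6b1 at -0.14, and Cyc1 did so in the interaction at 0.015. The stressed GFP libraries did not overlap unstressed GFP or stressed ZBTB7A on that level. These fits cannot separate it from the group there, and the cause was not tested. With a library left out, the median ranged from -0.12 to -0.06 for virus without stress, from -0.12 to -0.07 for virus with stress, from 0.03 to 0.10 for stress under GFP, from 0.03 to 0.08 for stress under ZBTB7A and from -0.05 to 0.03 for the interaction. With array weights the median for virus without stress was -0.13, and it was -0.12 without GFP control 10. No paired analysis was possible because no title number is shared between groups. A fit with the number run of the titles as a covariate called 0 members, and the medians were -0.07, -0.10, 0.06 and 0.03 in the first 4 comparisons. Depth limits members under 100 normalized counts, such as Sdhd and Cox7a1.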
